A study of Mus musculus with 24 samples.

Results

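The 8 genes described here encode steroid reductases and hydroxysteroid dehydrogenases and were taken as every row of the 21833-gene expression table whose symbol was Akr1d1, Akr1c18, Akr1c14, Srd5a1, Srd5a3, Hsd17b4, Hsd17b11 or Hsd17b12. Poly(A)-enriched RNA-seq of 24 mouse libraries in 4 groups was used to ask how these genes differed between adrenal glands and neuroblastoma tumors. AG were adrenal glands of mice without Cre (CRE -, n = 3). AGM were tumor-free adrenal glands of mice labelled MYCN +/-, CRE + (n = 5). TI were neuroblastoma tumors of CRE + mice with the IGF2BP1 transgene (n = 8), of which 7 were labelled IGF2BP1 +/+ and 1 was labelled IGF2BP1 +/-. TIM were tumors labelled IMP1/MYCN, CRE + (n = 8), where IMP1 is another name of IGF2BP1. The transgenes lay behind a floxed stop cassette in the Rosa26 locus and were switched on by a Cre under the Dbh promoter, that is in dopamine beta-hydroxylase-expressing cells of the sympatho-adrenal lineage and not in the steroid-producing cortex. All mice were bred towards C57Bl6/N, and neither age nor sex is given in the labels. Per the study, the MYCN mice of AGM were killed at a fixed late time point, and the ages of the groups were not compared here. The glands were whole organs of cortex and medulla, whereas the labels place only 1 TI and 2 TIM tumors in the adrenal gland and 1 TIM tumor at the spine, and call the others a tumor without a site. In such bulk tissue, fewer cells of a type and less RNA per cell cannot be told apart.

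Steroid reductases remove a double bond of the steroid ring, and hydroxysteroid dehydrogenases interconvert keto and hydroxy groups, so that both families decide how active a steroid hormone is and how fast it is cleared. The aldo-keto reductases Akr1d1, Akr1c18 and Akr1c14 and the reductase Srd5a1 act on steroids. Several genes with a steroid name work mainly on other lipids. Srd5a3 makes dolichol for N-glycosylation, Hsd17b4 is the D-bifunctional protein of peroxisomal beta-oxidation, Hsd17b11 sits on lipid droplets and Hsd17b12 is the ketoacyl-CoA reductase of fatty acid elongation in the endoplasmic reticulum. The adrenal cortex is the main steroid-producing tissue of the gland, and in the mouse its inner X-zone is known for high Akr1c18 in females.

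The labelled tissues were compared with marker genes. The 9 adrenal cortex markers had a sum between 586 and 596 FPKM in AG and between 2561 and 3576 in AGM. The sum was 3.42 to 17.6 FPKM among TI and 3.25 to 11.6 among TIM tumors, and the tumor libraries with the highest sums were TI 6 and TIM 5. The 9 chromaffin and sympathetic markers had a sum between 140 and 201 FPKM in AG and between 1286 and 2161 in AGM. It was 194 to 1794 FPKM among TI and 211 to 4712 among TIM tumors. Hepatocyte markers (6 genes) summed to 9.85 to 5120 FPKM in AGM against at most 26.8 in AG, 0.567 in TI and 8.73 in TIM. Pancreas acinar markers (5 genes) summed to 28333 to 428297 FPKM in AGM and 0.00506 to 3586320 FPKM in TIM, against at most 0.459 in AG and TI. In AGM this was Cpb1 and, in 1 library, Ctrb1, while Cpa1, Cela2a and Pnlip were at most 0.0268 FPKM. Adipocyte markers (4 genes) summed to 45.8 to 199 FPKM in AG and 177 to 980 in AGM, and to at most 11.8 FPKM in any tumor. The 4 Y-linked genes Ddx3y, Eif2s3y, Kdm5d and Uty summed to less than 0.1 FPKM in 3 of 3 AG, 5 of 5 AGM, 1 of 8 TI (TI 6) and 2 of 8 TIM libraries (TIM 5 and TIM 7), and to 2.69 to 30.1 FPKM in the other tumors. All AG samples were sequenced in run 1, all AGM samples in run 2, and TIM samples in runs 2 and 3, while 6 of 8 TI samples belonged to run 1. Run and group therefore cannot be told apart in comparisons of AG with AGM or TIM. The 126 genes that exceeded 1000 FPKM in any library held 64.5% to 98.6% of the recovered reads of each AGM and TIM library but at most 2.21% in AG and TI, so that the AGM and TIM libraries stand apart, with 58530450 to 1170004708 recovered reads in all against 12468968 to 21353172. Outside these genes every library held 12334076 to 23683176 recovered reads, and libraries are numbered within their group in the order of the table, a number that carries no pairing.

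The start sites of the members differed in base composition, and the promoter windows of 4 genes are shown because these genes gave the clearest contrasts below, Akr1d1 and Akr1c18 between glands and tumors, and Srd5a3 and Hsd17b12 between the tumor groups. The windows are RefSeq sequences of build GRCm38.p6, from 250 bases before to 50 bases after the start site, 5′ to 3′ on the gene's strand, at chr6:37529923-37530222 (plus) for Akr1d1, chr13:4150597-4150896 (minus) for Akr1c18, chr5:76140023-76140322 (plus) for Srd5a3 and chr2:94157860-94158159 (minus) for Hsd17b12. Capitals mark the motifs found on either strand.
Akr1d1: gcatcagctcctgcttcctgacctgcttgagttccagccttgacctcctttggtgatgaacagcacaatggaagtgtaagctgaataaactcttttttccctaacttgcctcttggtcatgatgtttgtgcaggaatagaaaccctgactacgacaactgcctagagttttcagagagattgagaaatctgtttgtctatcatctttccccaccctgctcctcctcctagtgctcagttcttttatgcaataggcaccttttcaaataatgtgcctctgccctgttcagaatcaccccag
Akr1c18: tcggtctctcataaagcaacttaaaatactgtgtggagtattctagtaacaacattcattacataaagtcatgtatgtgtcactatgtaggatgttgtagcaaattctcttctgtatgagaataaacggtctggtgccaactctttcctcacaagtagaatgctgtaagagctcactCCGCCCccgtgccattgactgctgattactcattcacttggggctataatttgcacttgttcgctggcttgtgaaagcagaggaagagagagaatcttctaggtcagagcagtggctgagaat
Srd5a3: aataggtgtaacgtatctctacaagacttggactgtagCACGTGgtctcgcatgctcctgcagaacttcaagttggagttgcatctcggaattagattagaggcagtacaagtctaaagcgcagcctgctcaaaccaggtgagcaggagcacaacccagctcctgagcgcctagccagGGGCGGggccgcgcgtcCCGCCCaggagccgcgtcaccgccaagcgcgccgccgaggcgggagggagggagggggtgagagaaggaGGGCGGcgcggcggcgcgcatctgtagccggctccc
Hsd17b12: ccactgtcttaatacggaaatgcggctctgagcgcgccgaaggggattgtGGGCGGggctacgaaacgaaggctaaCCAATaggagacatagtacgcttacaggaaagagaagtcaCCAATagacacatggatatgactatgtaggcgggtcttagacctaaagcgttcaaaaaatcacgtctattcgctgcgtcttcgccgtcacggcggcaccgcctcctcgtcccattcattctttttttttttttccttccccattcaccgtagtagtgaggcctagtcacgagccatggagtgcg
Motifs of 5 kinds were searched on both strands, namely the half-site AAGGTCA of steroidogenic factor SF-1 (present in 4.72% of all 32851 promoters of this length), the E-box CACGTG bound by MYC proteins (7.15%), CCAAT (37.4%), TATAAA (13.6%) and the GC box GGGCGG (35.7%). None of the matches overlapped another. The Akr1d1 window, with 45.7% GC and 1 CpG, held none of these strings, and the Akr1c18 window, with 42.3% GC and 5 CpG, held 1 GC box. The Srd5a3 window had 63.3% GC and 26 CpG, with an E-box starting 212 bases before the start site and 3 GC boxes. The Hsd17b12 window had 51.0% GC and 23 CpG, with 2 CCAAT boxes and 1 GC box. A match describes the letters only, and an absent match says nothing about binding elsewhere. The AAGGTCA string was in no window of the 7 members read here.

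The genes differed in level as well as in pattern. Per length, Akr1d1 was the highest member in AG at 169 ± 9.65 FPKM (SD, n = 3), rank 10 of 21833 genes, while its mean ranked 456 in AGM, 12450 in TI and 15806 in TIM. Hsd17b12 held the highest mean of the members in both tumor groups, with ranks 2029 in TI and 883 in TIM. Akr1c14 was the lowest member in AG and was the one gene that failed the requirement of at least 1 FPKM in at least 3 libraries. The other 7 members entered a limma fit of log2(FPKM + 1) over 10171 genes, and differences given below as log2 fold changes are on that scale, with a false discovery rate (FDR) below 0.05 as the threshold.

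**Figure D1:**
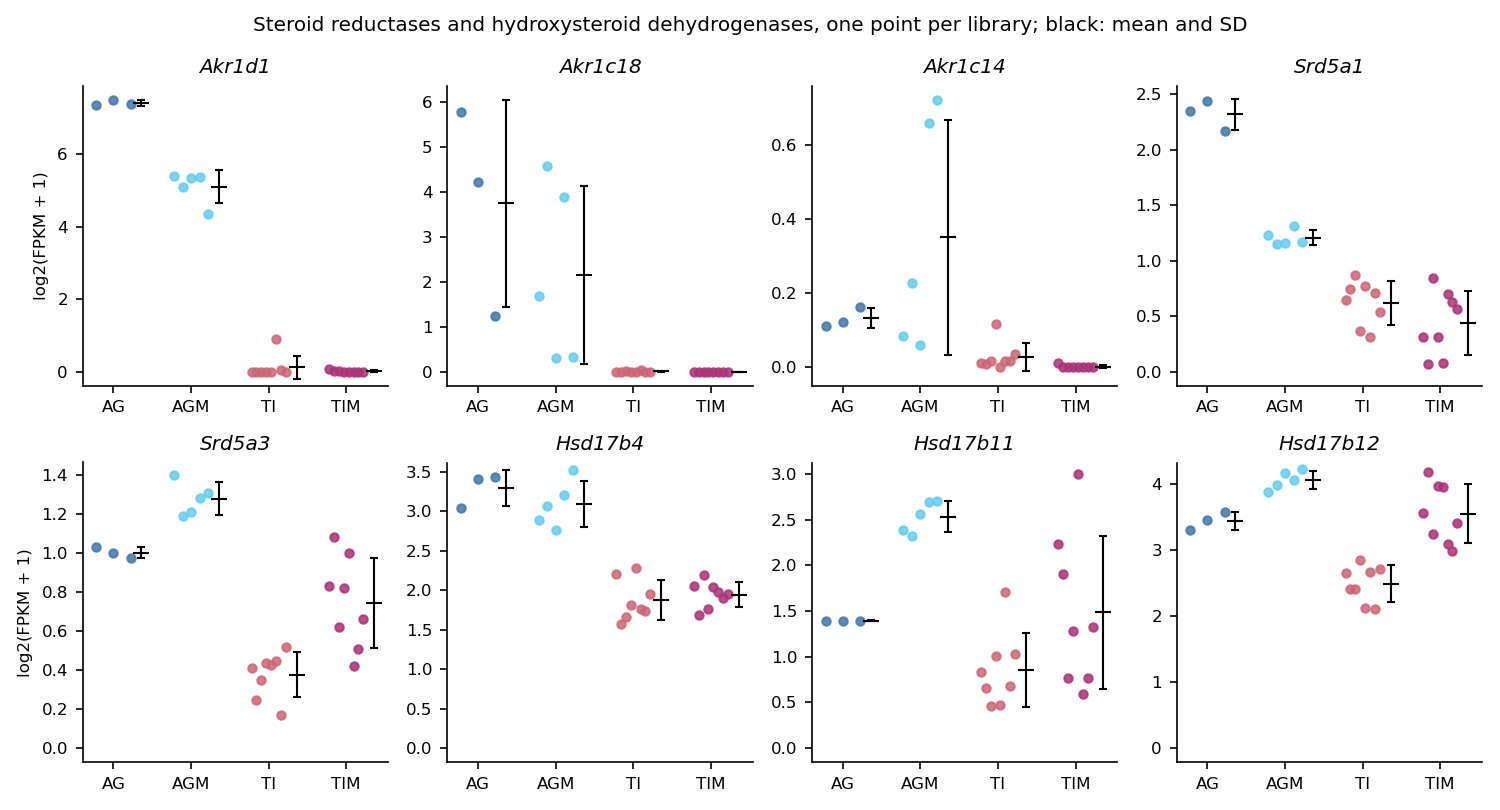
Expression of the 8 genes as log2(FPKM + 1) in each library (points) of AG (n = 3), AGM (n = 5), TI (n = 8) and TIM (n = 8), with the mean and SD per group in black and its own axis for each gene. Akr1d1 and Akr1c18 lie at or close to 0 in the tumors, and all 8 TIM libraries lie above all 8 TI libraries for Hsd17b12.

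Tumors were first compared with normal adrenal glands. In TI vs AG, 6 of the 7 tested members were lower in TI and none was higher, beside 27.7% of all tested genes called lower and 24.6% called higher; at an unadjusted limma p below 0.05 the counts were the same, 6 lower and 0 higher. The median log2 fold change of the members was -1.42, and that of all tested genes -0.0021. In TIM vs AG, 4 of 7 members were lower and 0 higher (5 lower and 0 higher at an unadjusted limma p below 0.05), beside 28.5% of all tested genes called lower and 22.5% called higher. Akr1d1, Akr1c18, Srd5a1 and Hsd17b4 were lower in both tumor groups, and Srd5a3 and Hsd17b12 passed the threshold in TI vs AG but not in TIM vs AG. Both comparisons share the 3 AG libraries. Akr1d1, Akr1c18 and Srd5a1 reached 1 FPKM in no tumor library and so entered the fit only through glands. The filter therefore favored their lower calls.

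Akr1d1 (ENSMUSG00000038641, GRCm39 chr6:37506822-37545751, plus strand), the reductase of bile acid synthesis and steroid hormone clearance, had the largest differences of the members on the log2(FPKM + 1) scale. It was measured at 161.9, 179.9 and 164.8 FPKM in AG and at 41.2, 33.0, 39.6, 40.4 and 19.3 FPKM in AGM. It was listed at 0 in 6 of 8 TI and 5 of 8 TIM libraries, with the highest values at 0.869 FPKM in TI 6 (265 recovered reads) and 0.0554 FPKM in TIM 1 (17 reads). The 3 groups AG, AGM and tumors did not overlap. The log2 fold change was -7.29 ± 0.19 in TI vs AG (SE; limma FDR 2.72e-19) and -7.39 ± 0.19 in TIM vs AG (SE; limma FDR 1.99e-19). TI and TIM did not differ beyond their spread, with a difference of -0.10 (95% confidence interval -0.39 to 0.18; limma FDR 0.632). TI 6, which stood apart within its group, was also the TI library with the highest cortex marker sum and the only TI library without Y-linked transcripts; the part of either in the Akr1d1 value was not tested.

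Akr1c18 (ENSMUSG00000021214, chr13:4182614-4200672, minus strand), the dehydrogenase that inactivates progesterone, varied more between glands than any other member. The AG libraries held 53.6, 17.6 and 1.35 FPKM, and the AGM libraries 2.19, 22.7, 0.227, 13.7 and 0.257 FPKM, so that the gland groups overlapped. It was listed at 0 in all 8 TIM and 6 of 8 TI libraries, and the highest tumor value was 0.0236 FPKM (3 recovered reads, TI 6). Every gland lay above every tumor. Y-linked genes were below 0.1 FPKM in every gland but in only 3 tumors, TI 6, TIM 5 and TIM 7, which held 0.0236, 0 and 0 FPKM of Akr1c18. Sex and tissue were thus largely confounded, for this and every other member compared between glands and tumors. The part of sex was not tested. The log2 fold change was -3.74 ± 0.73 both in TI vs AG (SE; limma FDR 0.000177) and in TIM vs AG (SE; limma FDR 0.00018), values that depend on the pseudocount because the tumors are at or near 0. The size moved with the gland left out, with -2.72 in TI vs AG and -2.73 in TIM vs AG without AG 1 and -4.99 and -5.00 without AG 3, and the call held in each case. Against AGM, it was -1.54 in both tumor groups without AGM 2 and -2.61 without AGM 3, again past the threshold. Pik3c2g, a kinase gene known from the same X-zone and chosen after the Akr1c18 values were seen, was at 0.171, 0.0740 and 0.00441 FPKM in AG 1 to AG 3, in the order of Akr1c18, and at 0.0407 and 0.0468 FPKM in AGM 2 and AGM 4, which also held the most Akr1c18 of their group. The other 3 AGM libraries held 0 to 0.00673 FPKM of Pik3c2g, which amounts to at most 7 recovered reads. Among tumors Pik3c2g reached 0.0222 FPKM in TIM 3 and 0.00701 FPKM in TI 3, both above AG 3. The shared order of the 2 genes in AG thus did not extend to TIM, where Akr1c18 was listed at 0 throughout.

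Akr1c14 (ENSMUSG00000033715, chr13:4099002-4141081, plus strand), a reductase of dihydro-steroids with its gene 41.5 kb from Akr1c18, was measured from few reads. AG held 0.0806, 0.0880 and 0.119 FPKM (28 to 41 recovered reads), and AGM held 0.0609, 0.171, 0.0423, 0.578 and 0.649 FPKM. TI ranged from 0 to 0.0851 FPKM with a median of 0.0120, and 7 of 8 TIM libraries were listed at 0, the other (TIM 1) at 0.00874. All TIM libraries lay below all AG libraries, and 7 of 8 TI libraries did. In exact two-sided permutation tests of the mean log2(FPKM + 1), adjusted over 6 comparisons, the difference was -0.10 in TI vs AG (adjusted p = 0.0146), -0.13 in TIM vs AG (adjusted p = 0.00909) and -0.03 in TIM vs TI (adjusted p = 0.00777). It was 0.22 in AGM vs AG (adjusted exact p = 0.304), where the 56 possible assignments of the libraries allow no p below 0.0179. The TI vs AG call was lost without AG 2 or AG 3 (adjusted exact p = 0.0533 in both). The AGM libraries with the most Akr1c14, AGM 4 and AGM 5, held hepatocyte marker sums of 3908 and 5120 FPKM against 9.85 to 162.6 in AGM 1 to AGM 3, and the part of this tissue in the Akr1c14 values was not tested. Members of the Akr1c cluster are close copies, and reads shared between them could have been split or lost in the authors' counting.

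**Figure D2:**
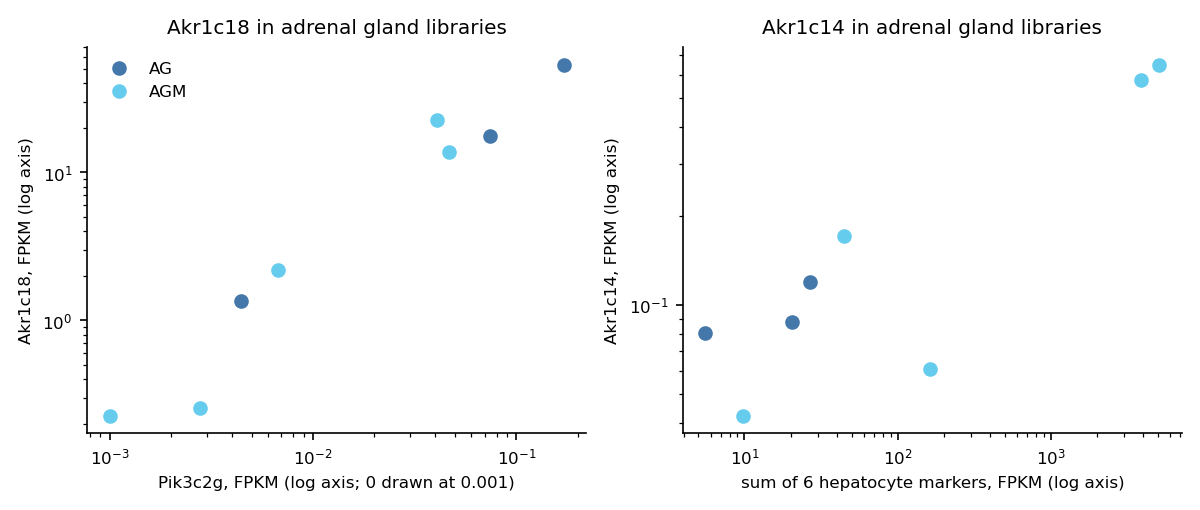
Left, Akr1c18 (FPKM, log axis) against the X-zone gene Pik3c2g (FPKM, log axis, 0 drawn at 0.001), and right, Akr1c14 (FPKM, log axis) against the sum of 6 hepatocyte markers (FPKM, log axis), one point per AG (n = 3) or AGM (n = 5) library. The Akr1c18 values span 0.227 to 53.6 FPKM, and the libraries with 3908 and 5120 FPKM of hepatocyte markers are the ones with the most Akr1c14.

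Srd5a1 (ENSMUSG00000021594, chr13:69721568-69759750, minus strand), the reductase that converts testosterone to dihydrotestosterone in liver and many other tissues, was highest in AG, lower in AGM and lowest in the tumors. AG held 4.10, 4.41 and 3.49 FPKM, AGM 1.35, 1.22, 1.24, 1.48 and 1.25 FPKM, TI 0.238 to 0.834 FPKM with a median of 0.600, and TIM 0.0515 to 0.791 FPKM with a median of 0.363. AG, AGM and the tumors did not overlap, whereas TI and TIM did. Log2 fold changes were -1.70 ± 0.14 in TI vs AG (SE; limma FDR 1.12e-09) and -1.88 ± 0.14 in TIM vs AG (SE; limma FDR 1.84e-10), and TIM and TI differed by -0.18 (95% confidence interval -0.40 to 0.04; limma FDR 0.225). The gene overlaps Nsun2, an RNA methyltransferase gene on the opposite strand. Nsun2 was at 2.97 ± 0.0529 FPKM in AG, 1.61 ± 0.252 in AGM, 1.84 ± 0.321 in TI and 2.20 ± 1.05 in TIM (SD). The libraries were made strand-specific, but the strand setting of the counting is not given in the sources used here.

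Hsd17b4 (ENSMUSG00000024507, chr18:50261268-50330439, plus strand), the peroxisomal enzyme, was at 7.22, 9.61 and 9.87 FPKM in AG and at 6.43, 7.40, 5.80, 8.22 and 10.5 FPKM in AGM. TI ranged from 1.98 to 3.88 FPKM with a median of 2.45, and TIM from 2.22 to 3.58 FPKM with a median of 2.91. Every tumor lay below every gland, while AG overlapped AGM and TI overlapped TIM. The log2 fold change was -1.42 ± 0.16 in TI vs AG (SE; limma FDR 1.1e-07) and -1.35 ± 0.16 in TIM vs AG (SE; limma FDR 2.56e-07). TIM and TI differed by 0.07 (95% confidence interval -0.17 to 0.32; limma FDR 0.707).

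**Figure D3:**
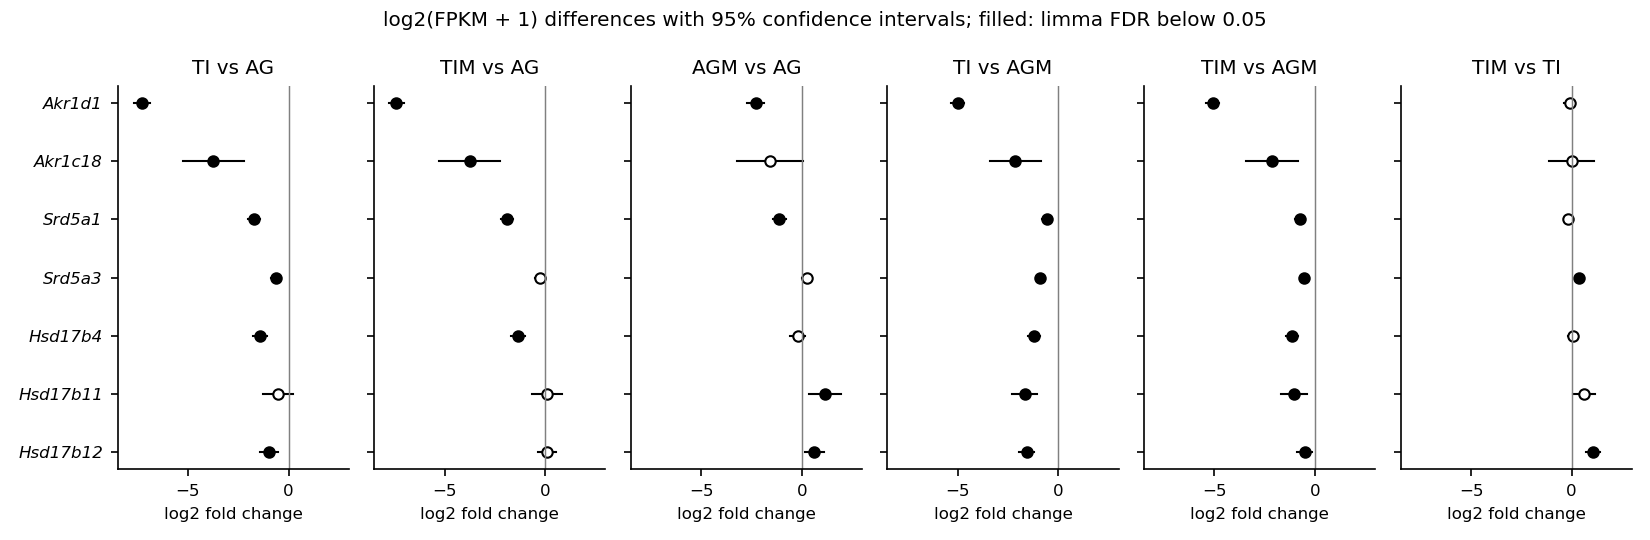
Log2 fold changes on the log2(FPKM + 1) scale of the 7 members in the limma fit, one panel per comparison, with 95% confidence intervals as lines and filled circles for an FDR below 0.05. All 7 members lie below 0 in TI vs AGM and TIM vs AGM, and Srd5a3 and Hsd17b12 are the filled circles above 0 in TIM vs TI.

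The tumor groups were compared in TIM vs TI. They differ in the MYCN transgene and also in IGF2BP1 dose, because both transgenes lie in the Rosa26 locus and a mouse with both has no room for more than 1 IGF2BP1 allele, whereas 7 of 8 TI samples were IGF2BP1 +/+. They differ in sequencing run as well, since 6 of 8 TI samples were of run 1, in which no TIM sample was sequenced. The parts of MYCN, IGF2BP1 dose and run cannot be told apart. Srd5a3 and Hsd17b12, 2 of the 7 tested members, were higher in TIM, beside 10% of all tested genes called higher, and 0 were lower, beside 12.9% called lower (3 higher and 0 lower at an unadjusted limma p below 0.05). When the values were rescaled to the genes that never exceeded 1000 FPKM, the split over all genes moved from 1017 higher and 1315 lower to 1074 higher and 2521 lower of 14422, with a median log2 fold change of -0.12, and both members stayed past the threshold. Rescaling also raised the values, so the unchanged filter and pseudocount of 1 acted at lower levels and more genes were tested. Changes after rescaling, here and below, therefore cannot be credited to scaling alone.

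Srd5a3 (ENSMUSG00000029233, chr5:76288111-76304846, plus strand), the polyprenol reductase, was at 1.04, 0.999 and 0.967 FPKM in AG and at 1.64, 1.28, 1.32, 1.43 and 1.47 FPKM in AGM. TI ranged from 0.124 to 0.435 FPKM with a median of 0.336, and TIM from 0.339 to 1.12 FPKM with a median of 0.676. In 6 of 8 TIM libraries Srd5a3 lay above all TI libraries. The log2 fold change was 0.37 ± 0.08 in TIM vs TI (SE; limma FDR 0.00336) and -0.63 ± 0.11 in TI vs AG (SE; limma FDR 5.78e-05). In TIM vs AG it was -0.26 (95% confidence interval -0.49 to -0.03; limma FDR 0.0578), which passed the threshold without TIM 2 (-0.31; limma FDR 0.0174) or TIM 5 (-0.29; limma FDR 0.0254), and after rescaling (-0.63; limma FDR 0.0321).

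Hsd17b12 (ENSMUSG00000027195, chr2:93863034-93988419, minus strand), the fatty acid elongation enzyme, did not overlap between the tumor groups. AG held 8.87, 9.88 and 10.9 FPKM and AGM 13.7, 14.7, 16.9, 15.7 and 17.6 FPKM. TI ranged from 3.32 to 6.21 FPKM with a median of 4.79, and TIM from 6.89 to 17.2 FPKM with a median of 10.2. All 8 TIM libraries lay above all 8 TI libraries, and the mean was 2.38 times that of TI. The log2 fold change was 1.06 ± 0.16 in TIM vs TI (SE; limma FDR 0.000119), and 0.97 to 1.14 when any 1 tumor library was left out. TI lay below AG (-0.95 ± 0.22, SE; limma FDR 0.000743), whereas TIM overlapped AG (0.11, 95% confidence interval -0.34 to 0.55; limma FDR 0.711).

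Hsd17b11 (ENSMUSG00000029311, chr5:104137628-104169902, minus strand), the lipid droplet enzyme, was the most variable member among tumors that expressed it. AG held 1.63, 1.62 and 1.63 FPKM (556 to 570 recovered reads) and AGM 4.23, 4.01, 4.89, 5.47 and 5.52 FPKM. TI ranged from 0.373 to 2.27 FPKM with a median of 0.691 and its highest value in TI 6, and TIM from 0.507 to 6.99 FPKM with a median of 1.47 and its highest value in TIM 5. TIM 5 exceeded every gland. TIM and TI differed by 0.63 (95% confidence interval 0.08 to 1.18; limma FDR 0.0882), and without TI 6, TIM 3, TIM 6 or TIM 7 the same comparison passed the threshold (limma FDR 0.0347 to 0.0492). Differences from AG were -0.54 in TI (95% confidence interval -1.28 to 0.20; limma FDR 0.219) and 0.09 in TIM (95% confidence interval -0.65 to 0.83; limma FDR 0.857).

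Adrenal glands with and without the MYCN transgene were compared in AGM vs AG. Akr1d1 and Srd5a1 were lower in AGM and Hsd17b11 and Hsd17b12 were higher, that is 2 of 7 members lower, beside 14% of all tested genes called lower, and 2 higher, beside 14.6% called higher. The split over all genes moved with rescaling, with 1488 higher and 1420 lower in the authors' values and 1280 higher and 4583 lower of 14422 after rescaling, where the median log2 fold change was -0.34. Akr1d1 in AGM was at 0.205 of its AG mean, with a log2 fold change of -2.30 ± 0.20 (SE; limma FDR 4.49e-09), and Srd5a1 fell by 1.11 ± 0.16 on the log2 scale (SE; limma FDR 9.17e-06). Neither group overlapped the other for these genes. Of the 9 cortex markers, 6 (Star, Cyp11a1, Cyp11b1, Cyp21a1, Nr5a1 and Mc2r) were higher in AGM in the same fit, while Fdx1 (0.18; limma FDR 0.635), Scarb1 (0.47; limma FDR 0.215) and Fdxr (-0.29; limma FDR 0.174) did not pass. The part of these cells in the difference was not tested.

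The rises in AGM were less firm. Hsd17b11 differed by 1.14 ± 0.39 (SE; limma FDR 0.0305) and Hsd17b12 by 0.62 ± 0.23 (SE; limma FDR 0.0498), and for both genes all 5 AGM libraries lay above all 3 AG libraries. The Hsd17b12 call was lost in each of the 8 fits that left out 1 library (limma FDR 0.0539 to 0.167) and its difference was 0.19 after rescaling (limma FDR 0.578). It was also lost with a pseudocount of 0.1 (limma FDR 0.0572) and without the filter (limma FDR 0.0577). The Hsd17b11 call was lost in 5 of 8 such fits and after rescaling (1.01; limma FDR 0.146). For Akr1c18 the difference was -1.59 (95% confidence interval -3.23 to 0.05; limma FDR 0.137), and it passed the threshold without AG 3 (-2.85; limma FDR 0.0095) or without AGM 2 (-2.20; limma FDR 0.0264). Srd5a3 (0.28; limma FDR 0.0878, and 0.00383 when only AG and AGM set the spread) and Hsd17b4 (-0.20; limma FDR 0.404) did not pass, and after rescaling Hsd17b4 was lower in AGM (-0.69; limma FDR 0.0102).

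Tumors were also compared with the tumor-free AGM glands. All 7 tested members were lower in TI vs AGM, beside 36.2% of all tested genes called lower and 36.2% called higher, and all 7 were lower in TIM vs AGM, beside 33.4% called lower and 31.9% called higher (0 higher in either at an unadjusted limma p below 0.05). After rescaling, the split over all genes was 6469 higher and 3784 lower in TI vs AGM and 5470 higher and 3659 lower in TIM vs AGM, against 3683 and 3678, and 3241 and 3398, in the authors' values. The median shift was 0.33 and 0.24. Here too, Akr1d1, Akr1c18 and Srd5a1 had met the filter only through glands, which favored their lower calls. Apart from Akr1d1 and Akr1c18, log2 fold changes ranged from -1.68 (Hsd17b11) to -0.59 (Srd5a1) in TI and from -1.14 (Hsd17b4) to -0.51 (Hsd17b12) in TIM. The Hsd17b12 difference in TIM vs AGM (limma FDR 0.0174) was -0.23 after rescaling (limma FDR 0.311). Akr1c14 was lower than AGM by 0.32 on the log2 scale in TI (adjusted exact permutation p = 0.00777) and by 0.35 in TIM (adjusted exact permutation p = 0.00466). Without the 3 AGM libraries with hepatocyte markers above 100 FPKM, the difference in TI vs AGM was -0.12 (adjusted exact p = 0.0533), and the TIM vs AGM call held. Only AGM 2 and AGM 3 were left, so few assignments were possible and the loss in TI does not show what those libraries contributed.

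The tumor difference was larger against AG than against AGM for some members, and the difference of TIM minus AGM and TI minus AG was tested in the same limma fit, as an addition made after the data were seen. Akr1d1 (2.19 ± 0.24, SE; limma FDR 3.95e-07) and Srd5a1 (0.93 ± 0.19, SE; limma FDR 0.00157), 2 of 7 members, were past the threshold with a positive value, beside 3.85% of all tested genes. The same value equals TIM vs TI minus AGM vs AG. TIM vs TI was -0.10 for Akr1d1 and -0.18 for Srd5a1, against -2.30 and -1.11 in AGM vs AG. For both genes it thus mostly repeats AGM vs AG and is not a separate tumor result. The split over all genes turned with rescaling, from 392 higher and 626 lower to 851 higher and 519 lower of 14422. Both calls were lost with a pseudocount of 0.1 (limma FDR 0.0531 for Akr1d1 and 0.378 for Srd5a1), and that of Srd5a1 also after rescaling (1.33; limma FDR 0.0787).

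Other genes of the same enzyme families were counted from a list of 35, of which 33 were in the table and 14 were tested. In TI vs AG and in TIM vs AG, 8 of 14 were lower and 1 was higher, where 27.7% and 28.5% of all tested genes were lower and 24.6% and 22.5% higher. In TIM vs TI, 0 of 14 differed by limma, also at an unadjusted p below 0.05, where 10% of all tested genes were higher and 12.9% lower. In AGM vs AG, 8 were higher and 1 (Hsdl2) was lower, where 14.6% and 14% of all tested genes were. Against AGM, 12 of 14 were lower and 1 was higher in either tumor group, where 36.2% (TI) and 33.4% (TIM) of all tested genes were lower. Srd5a2, Hsd17b13 and Dhrs9 met the filter only through AGM, and Akr1c13, Akr1cl, Hsd3b6 and Hsd11b1 only through glands. The filter therefore favored their lower calls in tumors and, for the AGM-only genes, their higher calls in AGM. Hsdl1, a dehydrogenase-like gene, was the one that was higher in both tumor groups, with 4.19 ± 0.854 FPKM in TI and 3.86 ± 0.619 in TIM against 2.38 ± 0.320 in AG and 2.22 ± 0.351 in AGM (SD).

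Hsd3b1, which makes progesterone from pregnenolone in the cortex, was at 234 ± 13.2 FPKM in AG, 1344 ± 135 in AGM, 0.521 ± 1.13 in TI and 0.626 ± 1.19 in TIM (SD). Akr1cl, also higher in glands than in tumors, was at 20.5 ± 1.14, 65.8 ± 10.7, 0.0434 ± 0.0958 and 0.0316 ± 0.0622 FPKM in AG, AGM, TI and TIM. Both were higher in AGM than in AG (2.51 and 1.63 on the log2 scale; limma FDR 0.000142 and 7.03e-11), where Akr1d1 and Srd5a1 were lower. The Hsd3b1 call was lost after rescaling (2.04; limma FDR 0.0735) and with a pseudocount of 0.1 (limma FDR 0.0851). Hsd3b1 has close copies on the same chromosome, so its reads may be shared with them. Hsd17b10, a mitochondrial dehydrogenase, was at 18.0 ± 1.20 FPKM in AG, 13.2 ± 2.52 in AGM, 6.79 ± 1.60 in TI and 5.68 ± 2.14 in TIM. Tecr, which acts after Hsd17b12 in fatty acid elongation, had means of 30.9, 32.9, 33.3 and 35.9 FPKM in AG, AGM, TI and TIM and passed the threshold in no comparison with the authors' scaling. After rescaling it was higher than AGM by 0.46 in TI (limma FDR 0.00424) and by 0.42 in TIM (limma FDR 0.00999).

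Srd5a2, the reductase of prostate and liver, had a mean of 349.5 ± 322 FPKM in AGM against 0.0176 in AG, 0.00503 in TI and 0.0759 in TIM. It rested on 13505 to 133337 recovered reads in AGM libraries and on at most 4 in AG and TI libraries. Hsd17b13, a lipid droplet enzyme of liver, ranged from 0 to 266 FPKM within AGM, with a mean of 0.00436 in AG. Its highest AGM values, 179.5 and 266 FPKM, were those of AGM 4 and AGM 5, the libraries with hepatocyte marker sums of 3908 and 5120 FPKM, and its AGM vs AG call was lost when only these groups set the spread (limma FDR 0.0678). Both genes were at or near 0 reads in AG, whose samples were all of run 1, and the part of the authors' batch correction or of hepatocyte transcripts in these values was not tested.

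**Figure D4:**
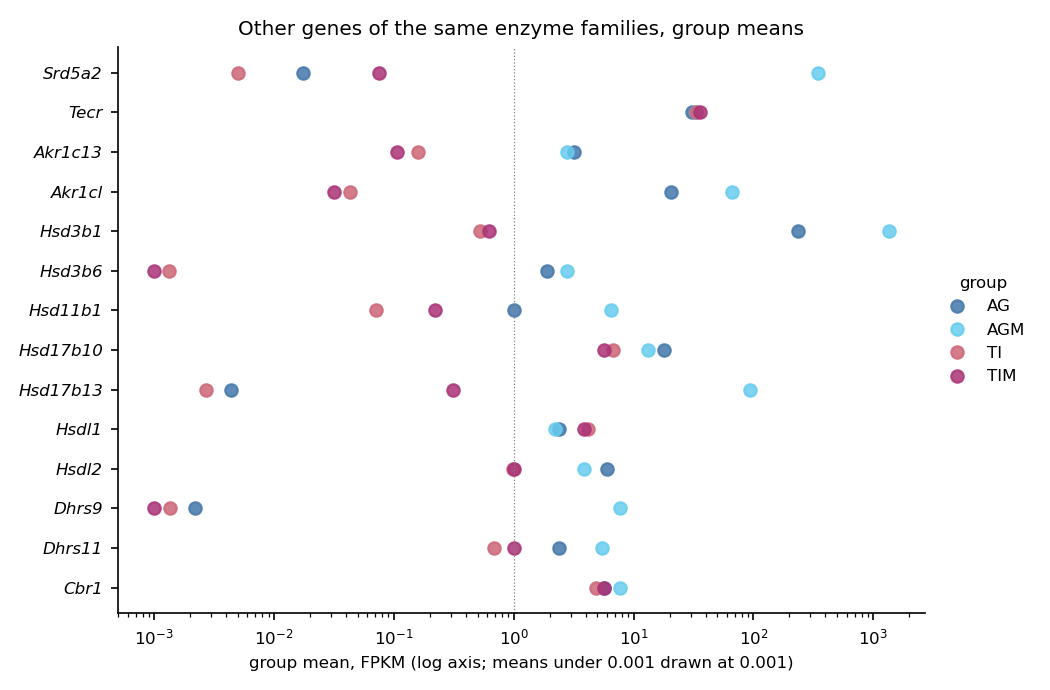
Group means (FPKM, log axis, means under 0.001 drawn at 0.001) of the 14 other family genes that were tested, one row per gene and one color per group, with a dotted line at 1 FPKM. Hsd3b1, Hsd3b6, Akr1cl and Akr1c13 lie above 1 FPKM in both gland groups and below it in both tumor groups, while Tecr lies at 30.9 to 35.9 FPKM in all 4.

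The cortex marker level differed between tumors. Each member was therefore set against the mean log2(FPKM + 1) of the 9 cortex markers over the 8 TI and the 8 TIM libraries. This gave 15 relations with exact two-sided permutation tests. Fdxr, Scarb1 and Fdx1 had medians of 2.49, 0.991 and 0.617 FPKM in TI and 1.44, 1.13 and 1.03 in TIM. The other markers had medians of 0 to 0.0391 FPKM in TI and 0 to 0.245 in TIM (highest for Star). In most tumors the level thus rested mainly on Fdxr, Scarb1 and Fdx1 and may not stand for cortex content. Hsd17b11 in TIM was the one relation past the threshold (Pearson's r = 0.893, exact p = 0.00159, adjusted p = 0.0238; Spearman's rho = 0.762, exact p = 0.0368, adjusted p = 0.138). Without the 2 libraries farthest from the median marker level, r was 0.703 over 6 libraries (exact permutation p = 0.119), so the relation no longer passed the test. In TI, Hsd17b11 had a similar coefficient that did not pass (r = 0.853, exact p = 0.0347, adjusted p = 0.131; rho = 0.762, adjusted p = 0.138). Without the 2 farthest TI libraries it was 0.849 (exact permutation p = 0.05). TI 6 and TIM 5, with the most Hsd17b11 of their groups, also held the highest chromaffin marker sums (1794 and 4712 FPKM). A relation of Hsd17b11 with chromaffin markers was not tested, so its relation here was not shown to be particular to cortex markers. In TI, Akr1d1 had r = 0.957 (exact p = 0.0179, adjusted p = 0.131; rho = 0.764, adjusted p = 0.138), and the 6 TI libraries other than TI 6 and TI 7 were all listed at 0. Srd5a1 had negative coefficients in both groups, with r = -0.671 in TI (exact p = 0.0418, adjusted p = 0.131) and r = -0.662 in TIM (exact p = 0.0437, adjusted p = 0.131). Hsd17b12, which was higher in TIM than in TI, had r = 0.186 in TI and 0.467 in TIM (adjusted exact permutation p = 0.865 and 0.481). No relation could be computed within a sequencing run, because the columns of the table do not name one.

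**Figure D5:**
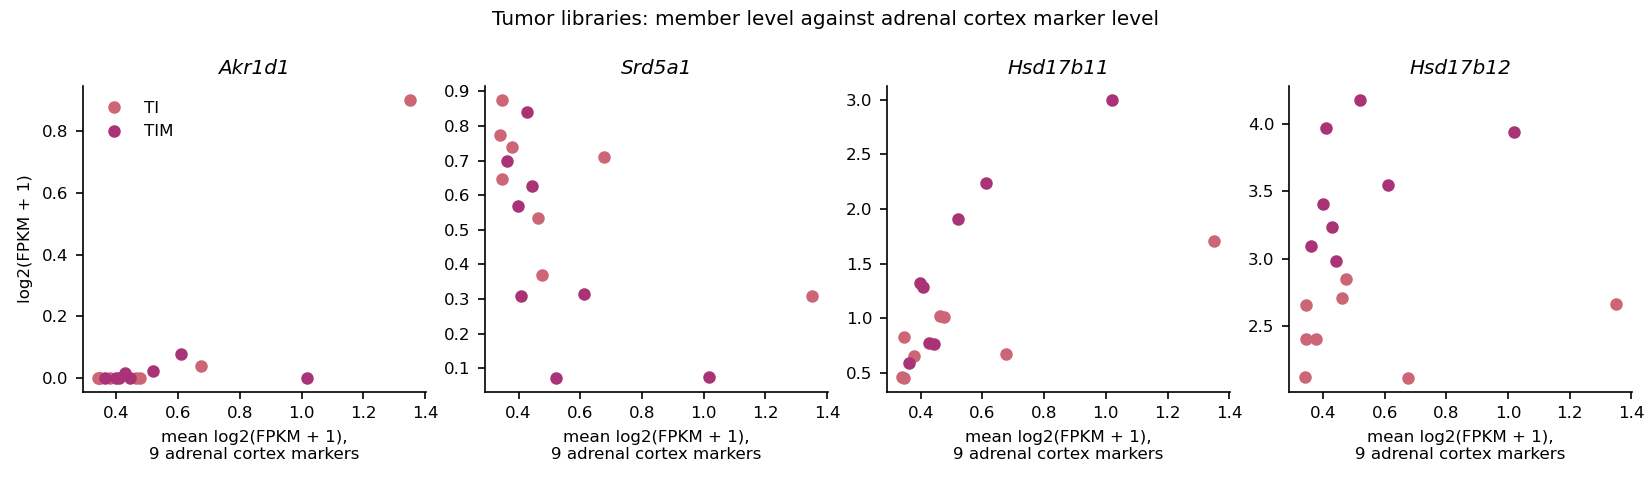
Expression of 4 members as log2(FPKM + 1) in the tumor libraries against the mean log2(FPKM + 1) of 9 adrenal cortex markers, one point per TI (n = 8) or TIM (n = 8) library. TI 6, at a marker mean of 1.35, holds the highest Akr1d1 value of the tumors, and TIM 5, at 1.02, the highest Hsd17b11 value.

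Over all 24 libraries, the genes whose log2(FPKM + 1) ran closest to each member were named by Pearson's r, as a description in which group differences carry most of the coefficient. Akr1d1 ran closest to Cst8 (0.994), Rmdn2 (0.994) and Hao2 (0.993). Akr1c14 ran closest to Slc6a13 (0.977), Rgn (0.970) and Lcat (0.968), of which Rgn and Lcat are known from hepatocytes. Srd5a1 ran closest to Aifm1 (0.969), Srd5a3 to Dnaja3 (0.966), Hsd17b4 to Ak3 (0.959), Hsd17b11 to Gpr146 (0.961) and Hsd17b12 to Herpud1 (0.918), an endoplasmic reticulum stress gene. The lowest leading coefficient was that of Akr1c18, with Tbc1d4 (0.871), Mcpt4 (0.869) and Trim30a (0.864).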

How the data were processed

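Poly(A)-enriched, strand-specific RNA-seq of 24 samples was deposited as 1 table of FPKM for 21833 protein-coding genes. The deposited FPKM values (fragments scaled to gene length in kilobases and to 1000000 fragments) were made by the authors, whose processing notes name cutadapt 2.8, HISAT2 2.1.0, SAMtools 1.10, featureCounts 2.0.0 and edgeR 3.40, with reads aligned to mm39, counts corrected for batch by ComBat-seq and libraries scaled by TMM. ComBat-seq replaces counts by adjusted ones, which can shift genes of low count strongly. The authors' log2 fold changes, p-values and FDR in the same table were not used. Multiplied by gene length, 100% of values were whole multiples of 1 step per library (tolerance 0.01), which gave recovered reads after correction. Read numbers speak only to counting error, and confidence intervals are from limma and cover the spread between libraries.

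Columns were assigned to groups by name. They carry no sample number, so run, zygosity and tumor site could not be tied to a column. No column duplicated another, and 31.3% to 90.3% of 9200 genes differed beyond counting error between libraries of a group.

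log2(FPKM + 1) of the 10171 genes that reached 1 FPKM in 3 or more libraries was fitted with limma 3.58.1 (R 4.3.3; lmFit, eBayes with trend) over all 4 groups without covariates, with Benjamini-Hochberg adjustment and an FDR below 0.05. The code was tested on simulated data. Akr1c14, below the filter, was compared by exact two-sided permutation. Fold changes on this scale understate those of low genes. P-values of group comparisons set a difference against the spread between these samples.

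The members, family list and marker lists were chosen with earlier results of these data known. All 8 members were named, and other family genes where a group mean reached 10 FPKM, plus Hsdl1, Hsdl2, Hsd3b6, Akr1c13, Dhrs9, Hsd11b1, Pik3c2g and Nsun2, chosen after their values were seen. Alternatives were a pseudocount of 0.1, no filter, rescaling outside genes above 1000 FPKM, only the 2 compared groups in the fit, and leaving out each library. Gene positions are from GENCODE on GRCm39, and promoters from RefSeq on GRCm38.p6, matched by symbol for 7 members. Protein sequences were not used here.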

Additional observations from a re-analysis of the deposited data

Results flagged for a closer look

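For the members, 23 groups of 5 or 8 libraries were examined, and 6 held a value far from the rest of the group. Chance gives about 1 in 20. That rate does not hold for Akr1d1, Akr1c18 and Akr1c14 in tumors, where most libraries were at or near 0 and a few reads set a library apart. Akr1d1 was at 0.869 FPKM in TI 6 and at 0.0554 FPKM in TIM 1, against at most 0.0278 and 0.0148 FPKM in the other libraries of the group. Akr1c18 was at 0.0236 FPKM in TI 6, which is 3 recovered reads. Akr1c14 was at 0.0851 FPKM in TI 4 (30 reads) and at 0.00874 FPKM in TIM 1 (3 reads). Hsd17b11 was at 2.27 FPKM in TI 6, where the next highest TI library held 1.04. TI 6 was the library in 3 of these 6 cases, and it held 17.6 FPKM of cortex markers and 1794 FPKM of chromaffin markers, the highest sums of its group; their part in these values was not tested.

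For 2 members the difference of TIM from AGM was unlike that of TI from AG. Neither passed the threshold in TIM vs TI, so this mostly repeats their AGM vs AG difference. Akr1d1 gave 2.19 (limma FDR 3.95e-07) and Srd5a1 0.932 (limma FDR 0.00157) on the log2 scale, but both calls were lost with a pseudocount of 0.1, and that of Srd5a1 also after rescaling. Since AG was sequenced in run 1 and AGM in run 2, genotype and run cannot be told apart in these values.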

How the results depend on the processing

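No paired analysis was possible because the columns carry no sample number, so the replicate numbers of the titles could not be used as a block. The counts of members past the threshold in the pairwise comparisons kept within 1.5 times under every alternative run, except in AGM vs AG. In AGM vs AG the count was 2 in place of 4 with a pseudocount of 0.1 and 2 to 4 when 1 library was left out (2 without AG 1, AG 2, AGM 4 or AGM 5). In TIM vs AG it was 4 to 5 when 1 library was left out, with Srd5a3 added without TIM 2 or TIM 5. For the difference of TIM minus AGM and TI minus AG, it was 0 in place of 2 with a pseudocount of 0.1, 1 after rescaling and 2 to 3 when 1 library was left out, alternatives chosen after seeing the data. The number of cortex relations past the threshold in TIM was 0 in place of 1 without the 2 libraries farthest from the median.

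Signs turned only where the difference was not past the threshold. Hsd17b11 in TIM vs AG was -0.010 with a pseudocount of 0.1 and -0.13 after rescaling (-0.12 to 0.22 when 1 library was left out). After rescaling, Hsd17b12 in TIM vs AG was -0.037, Hsd17b4 in TIM vs TI -0.028, and Tecr -0.39 in AGM vs AG and -0.042 in TIM vs TI. When 1 library was left out, values in TIM vs TI ran from -0.12 to 0.0087 for Akr1d1 (0.0087 without TI 6), -0.0058 to 0.091 for Srd5a2, -0.042 to 0.028 for Akr1cl and -0.13 to 0.36 for Hsd3b1. In TIM vs AG they ran from -0.024 to 0.073 for Srd5a2. For Tecr they ran from -0.00062 to 0.13 in AGM vs AG, -0.015 to 0.16 in TIM vs TI, -0.011 to 0.17 in TIM vs AGM and -0.068 to 0.082 in TI vs AGM. Akr1c14 did not pass in limma without the filter on low values (FDR 0.443 in TI vs AG, 0.305 in TIM vs AG and 0.868 in TIM vs TI). The cause of these changes was not tested. Depth limits Akr1c14 and the tumor values of Akr1d1 and Akr1c18, which rest on few reads.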
